A study of Saccharomyces cerevisiae with 12 samples.

Results

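The 56 nuclear genes of Saccharomyces cerevisiae whose standard symbol is RPS with a number and an optional A or B were examined, out of 7130 gene identifiers counted in all. They encode the proteins of the small subunit of the cytosolic ribosome, and they were taken by symbol, not by any measured value. In all, 8 genes are single-copy, RPS2, RPS3, RPS12, RPS13, RPS15, RPS20 and RPS31 among them, and the other 48 genes form 24 pairs of A and B copies, so that the family makes 32 proteins. In the deposited annotation (build R64-1-1) the genes lay on 14 chromosomes, had between 171 and 786 coding bases, and were split by an intron in 36 cases. By the place of the protein in the subunit, 22 genes were grouped with the head, 10 with the platform and the side where the messenger RNA leaves, and 24 with the body.

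The small subunit binds the messenger RNA, scans it for the start codon and holds the codons against the anticodons of the transfer RNAs. Ribosomal protein genes are among the most strongly transcribed genes of growing yeast. Their transcription depends on Rap1, Fhl1 and Ifh1, and it follows nutrient signals passed through TOR and protein kinase A. The A and B copies stem from an ancient duplication of the whole genome and encode identical or nearly identical proteins.

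Cultures were started from single colonies and each was split into a portion grown overnight with the Hsp90 inhibitor radicicol at 10 µM and a portion grown without the drug. Both were then diluted to an OD600 of 0.001 and grown for 24 h before harvest, so the treated cells are called pre-treated here. From each condition there were 3 libraries of poly(A)-selected RNA cut to 27 to 33 nucleotides and 3 libraries of ribosome-protected fragments from monosomes, 12 libraries in 4 groups of 3. The strain, the medium, whether radicicol was in the final medium, the density at harvest and whether a library number marks the same colony across groups are not given in the sources used here, and no spike-in is described. Every change is therefore a change against the rest of the library's genes, and in a bulk culture fewer transcripts per cell cannot be told apart from fewer cells that carry them. The p-values measure the spread between 3 libraries a group.

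The libraries held between 737922 and 2481336 counted reads, so that 3 counts corresponded to 1.21 to 4.07 CPM, which are counts scaled to a common library size. All 56 members passed the filter on low counts in each comparison. Each exon was counted as its own feature, and a read that spans a splice junction or matches 2 places was lost, so that the levels of A and B copies are uncertain and rest on the bases in which they differ. The untreated fragment library of replicate 1 stood apart for the family. The members' median deviation from their mean was -0.27 on the log2 scale in this library, against 0.01 for all genes tested, and between -0.02 and 0.12 in the other 5 fragment libraries. The counts of called members, the members' median and the calls of single genes in fragments are given with and without it. Results in fragments for summed pairs, groups of members, A shares, first exons and correlations include it.

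On average the family took a similar part of the libraries in both conditions. Of all counted RNA reads, 2.36% ± 0.167 (SD, n = 3) fell on the 56 genes in untreated cells and 2.39% ± 0.0721 (n = 3) in pre-treated cells. Of all counted fragments, 1.502% ± 0.179 (n = 3) fell on them in untreated cells and 1.51% ± 0.0344 (n = 3) in pre-treated cells. In both kinds of library the groups overlapped, but in fragments only through untreated replicate 1, the lowest of all at 1.30%. Untreated fragment replicates 2 and 3, at 1.596% and 1.615%, lay above all pre-treated ones, which ran from 1.471% to 1.532%. The plot of library shares shows this beside the large subunit, whose 81 genes took 3.71% of untreated and 3.67% of pre-treated RNA reads.

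**Figure D1:**
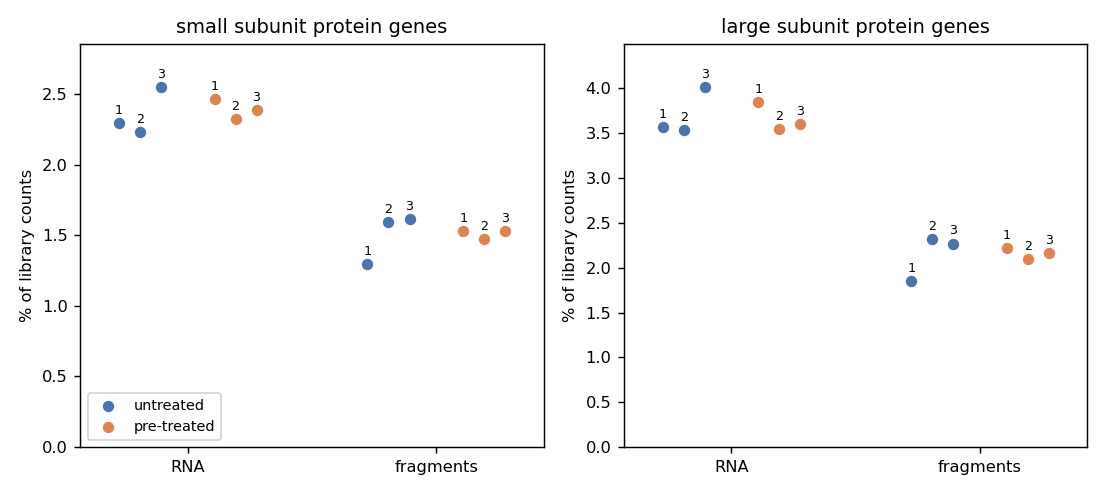
Share of counted reads (percent of each library) on the small subunit genes and on the large subunit genes, 1 numbered point for each library. The untreated and pre-treated points overlap in both kinds of library, in fragments only through untreated replicate 1. That library lies lowest, at 1.30% for the small subunit.

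Levels per kilobase of coding sequence differed widely among the members, and the medians of pair sums and single-copy genes lay close together in RNA. In untreated RNA the single-copy genes ran from 962 to 2359 CPM per kilobase with a median of 1633, and the sums of the 24 pairs ran from 465 to 4630 with a median of 1738. In untreated fragments the medians were 893 CPM per kilobase for single-copy genes and 1108 for pair sums. Among the pairs, RPS6, a target of kinases in nutrient signalling, had the lowest sum in RNA, at 465 ± 86.0 CPM per kilobase (SD, n = 3). The sum of RPS25 was the highest, at 4630 ± 417 CPM per kilobase. Reads shared by identical stretches of A and B copies are missing from these sums, by an amount that was not tested.

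Of the single-copy genes, RPS31 had the highest RNA level and one of the lowest fragment levels. RPS31 encodes ubiquitin fused to a small subunit protein, from which it is cut off. Its RNA stood at 2359 ± 146 CPM per kilobase (SD, n = 3), and below it were RPS15 at 2017 ± 102, RPS12 at 1700 ± 89.7 and RPS3 at 1566 ± 77.7. RPS13 stood at 1354 ± 33.2, RPS20 at 1196 ± 51.3 and RPS2 at 962 ± 31.9 CPM per kilobase. Of these genes, RPS12 and RPS3 differed by less than the sum of their SDs. In fragments RPS15, which reaches towards the decoding site from the head, stood at 1344 ± 215 CPM per kilobase. RPS3 at 956 ± 163, RPS20 at 899 ± 109 and RPS13 at 888 ± 68.8 were not separated by their SDs, nor were RPS12 at 542 ± 93.8, RPS31 at 504 ± 74.0 and RPS2 at 478 ± 39.2.

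After pre-treatment, RPS22A RNA was higher and the RNAs of 4 members, RPS14B, RPS26A and RPS15 among them, were lower. The other 51 members did not pass the test. The quasi-likelihood test of edgeR, adjusted over all genes by Benjamini and Hochberg's method, thus called 1 member higher and 4 lower at an adjusted p of at most 0.05. Over the 5578 genes tested 7.17% were called higher and 6.06% lower, so the 4 lower members were near the background share. The members' median log2 change was -0.04, against -0.002 for all genes, and single changes ran from -0.59 to 0.36. The groups of 3 libraries did not overlap for 14 members that were higher and 9 that were lower, against 16.2% and 13.8% of all genes. Of the 81 large subunit genes, 1 was called higher and 6 lower, with a median of -0.11.

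RPS14B (YJL191W, chromosome X, 73787 to 74611, plus strand, with an intron) changed most. Its protein sits on the platform, and in yeast it is known to bind its own precursor RNA and lower its splicing. The RNA stood at 190.4, 201 and 213 CPM in untreated libraries and at 136, 134 and 130 CPM in pre-treated ones. Each pre-treated library was below each untreated one, and the log2 change was -0.59 ± 0.10 (SE, edgeR adjusted p = 0.000229), or 0.666 of the untreated level. This call held in all alternatives that keep the copies apart. The A copy, with 596 ± 15.5 CPM in untreated and 584 ± 37.6 CPM in pre-treated RNA (SD, n = 3), had a log2 change of -0.03 (adjusted p = 0.883).

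RPS26A (YGL189C, chromosome VII, 148229 to 148588) encodes a protein that contacts the messenger RNA where it leaves the subunit. Its RNA stood at 1048, 831 and 1007 CPM in untreated and at 776, 675 and 682 CPM in pre-treated libraries, with no overlap. The log2 change was -0.43 ± 0.10 (SE, edgeR adjusted p = 0.00508), and the adjusted p was 0.061 without pre-treated RNA replicate 2. The RNA of the B copy was at 191 ± 42.2 and 176 ± 25.6 CPM (SD, n = 3).

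RPS15 (YOL040C, chromosome XV, 253149 to 253577), the head protein, had 891, 889.7 and 815 CPM in untreated and 779, 642 and 696 CPM in pre-treated RNA. The groups did not overlap, and the log2 change was -0.30 ± 0.10 (SE, edgeR adjusted p = 0.046). The call rested on single libraries, since the adjusted p was 0.101 and 0.0868 without untreated replicates 1 and 2, and 0.312 and 0.142 without pre-treated replicates 2 and 3.

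RPS22A (YJL190C, chromosome X, 74910 to 75302, minus strand), which encodes a protein of the body bound to the central domain of the ribosomal RNA, lies 298 bases from the end of RPS14B and runs towards it. Its RNA stood at 251, 269.6 and 305 CPM in untreated and at 351, 336 and 337 CPM in pre-treated libraries. The groups did not overlap, and the log2 change was 0.33 ± 0.10 (SE, edgeR adjusted p = 0.0305). The call was lost with upper-quartile scaling (adjusted p = 0.0537), with DESeq2 (0.0593) and with the replicate number as a block (0.0515). It was also lost without any 1 of untreated replicates 1 and 2 and pre-treated replicates 1, 2 and 3, where the adjusted p lay between 0.0522 and 0.115. Of these neighbours in opposite orientation, the one fell and the other rose in RNA, and reads were counted by strand.

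Members just outside the calls had values of similar size. RPS23B RNA, which encodes a protein of the decoding site, had a log2 change of 0.25 (adjusted p = 0.0888) and RPS22B one of -0.40 (adjusted p = 0.102). RPS22B was low, between 40.9 and 72.9 CPM in RNA, and its untreated libraries spanned the pre-treated ones. Without untreated replicate 3, RPS22B (adjusted p = 0.037) and RPS23B (0.0486) passed the test.

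**Figure D2:**
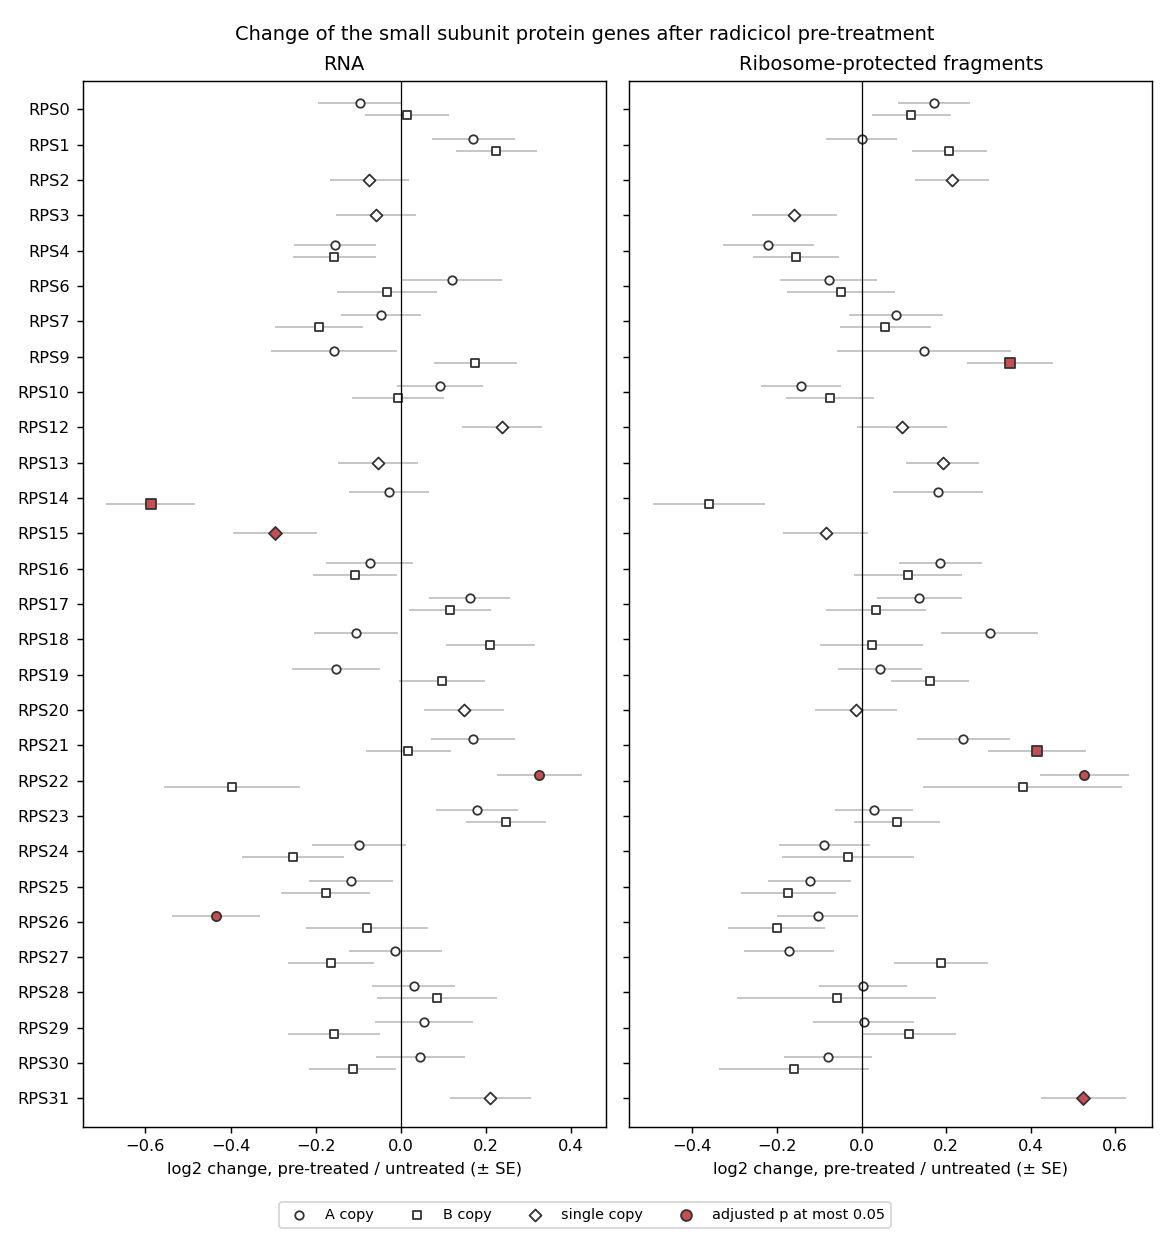
Log2 change after radicicol pre-treatment (x axis) of the members (y axis, in order of number), with standard errors from edgeR, for RNA and for ribosome-protected fragments, with called members marked. RPS14B lies furthest to the left in RNA at -0.59, and RPS22A and RPS31 lie furthest to the right in fragments at 0.53.

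In ribosome-protected fragments, RPS31, RPS22A, RPS21B and RPS9B were higher after pre-treatment and no member was called lower. These 4 of 56 compare with 8.53% of the 5090 genes tested called higher and 4.85% called lower. At an unadjusted p under 0.05, 9 members were higher and 1 was lower, against 14.2% and 10.9% of all genes. DESeq2 called 3 members higher and 0 lower, against 4.22% and 2.03% of all genes in its fit. That fit took all 7130 gene identifiers with no filter, so these shares include genes too low to be called. The members' median log2 change was 0.03, against -0.009 for all genes, and single changes ran from -0.36 to 0.53. The groups did not overlap for 10 members that were higher and 2 that were lower, against 15.9% and 13.6% of all genes.

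These counts moved with untreated fragment replicate 1. Without it, 2 members were called higher, RPS22A and RPS31, and 3 were called lower, RPS14B, RPS3 and RPS4A. In that fit 8.17% of the genes tested were called higher and 4.80% lower, and the members' median was -0.06. There 38 of 56 members and 2573 of 5142 genes were negative, against 23 of 56 and 2618 of 5090 with all libraries. Upper-quartile scaling gave 4 members higher and 1 lower, and over all genes 364 higher (7.15%) and 330 lower (6.48%), in place of 434 and 247.

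RPS31 (YLR167W, chromosome XII, 498947 to 499405) had 193, 258 and 243 CPM of fragments in untreated and 315, 340.1 and 345 CPM in pre-treated libraries. All pre-treated libraries were above all untreated ones. The log2 change was 0.53 ± 0.10 (SE, edgeR adjusted p = 0.000515), 1.44 times the untreated level, and it held in each alternative. In RNA the same gene had 1098, 1009 and 1141 CPM in untreated and 1286, 1217 and 1249 CPM in pre-treated libraries, also without overlap, with a log2 change of 0.21 ± 0.10 that did not pass (adjusted p = 0.157).

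RPS22A, called in RNA, was called in fragments as well. It had 178, 239.9 and 242 CPM in untreated and 321, 331 and 302 CPM in pre-treated fragments, without overlap. The log2 change was 0.53 ± 0.11 (SE, edgeR adjusted p = 0.000695), 1.44 times the untreated level, and it held in each alternative that keeps the copies apart. RPS14B, its neighbour, had 99.2, 137 and 116 CPM in untreated and 103, 77.6 and 94.3 CPM in pre-treated fragments. These groups overlapped, and the log2 change of -0.36 ± 0.13 did not pass (adjusted p = 0.0741). It passed with upper-quartile scaling (0.0398), without the filter (0.039), and without untreated replicate 1 (0.0134) or pre-treated replicate 1 (0.0323).

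RPS21B (YJL136C, chromosome X, 156550 to 157273), whose protein binds beside Rps0 on the back of the platform, had 164, 247 and 237 CPM in untreated and 287, 294 and 284 CPM in pre-treated fragments. RPS9B (YBR189W, chromosome II, 604508 to 605508), a body protein with a part in decoding accuracy, had 220.0, 226 and 279.6 CPM in untreated and 332, 310.4 and 282 CPM in pre-treated fragments. Neither gene's groups overlapped, though for RPS9B the nearest libraries of the groups were 279.6 and 282 CPM. The log2 changes were 0.42 ± 0.12 (edgeR adjusted p = 0.0167) and 0.35 ± 0.10 (adjusted p = 0.0194). The RPS21B call was lost in the whole-series table of counts per gene (adjusted p = 0.0695), without untreated replicate 1 (0.0723) and without pre-treated replicate 2 (0.0873). The RPS9B call was lost with DESeq2 (0.0564) and without untreated replicate 1 (0.057) or 2 (0.101) or pre-treated replicate 1 (0.0913) or 2 (0.0978).

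In RNA RPS21B was at 338 ± 29.2 CPM in untreated and 342 ± 18.5 CPM in pre-treated cells (SD, n = 3). Its first exon has 24 of 264 coding bases, which is 9.09%. That exon held 20%, 21.2% and 21.4% of its untreated fragments and 17.7%, 30.8% and 25.9% of its pre-treated ones. The RNA reads in it made up between 6.95% and 12.3%.

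The other members with the lowest changes in fragments were RPS4A, at -0.22 (adjusted p = 0.204), and RPS26B, at -0.20 (adjusted p = 0.294). RPS4A, a body protein, passed without untreated replicate 1, with a log2 change of -0.32 (adjusted p = 0.0365). Of the single-copy genes other than RPS31, RPS2 had a change of 0.21 (adjusted p = 0.119) and RPS13 one of 0.19 (adjusted p = 0.16), both without overlap of the groups, while RPS3, RPS12, RPS15 and RPS20 ran from -0.16 to 0.10.

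With the copies of each pair counted as 1 protein, fewer were called in RNA. Of the 32 proteins, 0 were called higher in RNA (4 at an unadjusted p under 0.05), where RPS15 (log2 change -0.30, edgeR adjusted p = 0.0423) and RPS26 (-0.38, adjusted p = 0.0133) were called lower. The summed RPS14 RNA had a change of -0.15 (adjusted p = 0.307). In fragments RPS31 (0.53, adjusted p = 0.000406), RPS22 (0.52, adjusted p = 0.000623), RPS9 (0.33, adjusted p = 0.0238) and RPS21 (0.35, adjusted p = 0.0263) were called higher and 0 lower, also at an unadjusted p under 0.05. These fits were not repeated without untreated fragment replicate 1. Over all genes in them 7.12% were called higher and 5.98% lower in RNA, and 8.71% higher and 4.99% lower in fragments. At an unadjusted p under 0.05, 13.7% of all genes were higher in RNA and 11% were lower in fragments.

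By place in the subunit the called members were spread. In RNA the platform group had 0 of 10 higher and 2 lower, the body 1 of 24 higher and 1 lower, and the head 0 of 22 higher and 1 lower, with medians of -0.008, -0.06 and 0.01. In fragments the same groups had 1, 2 and 1 higher and none lower, with medians of 0.14, 0.04 and 0.03. Genes with an intron had a median change of -0.05 in RNA and 0.05 in fragments, and genes without one had 0.02 and 0.001.

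**Figure D3:**
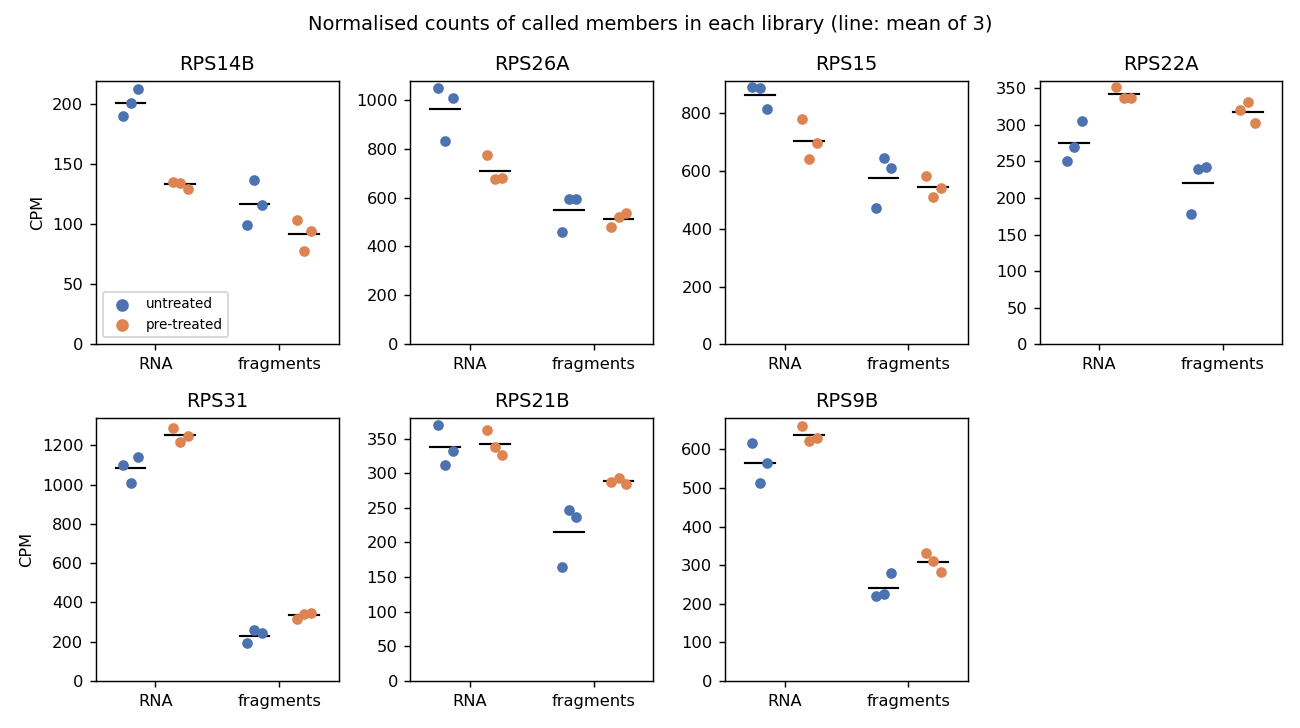
CPM (y axis) of called members in each RNA and fragment library, 1 point for each library. RPS14B RNA lies at 190.4 to 213 CPM in untreated and 130 to 136 CPM in pre-treated libraries, and RPS31 fragments lie at 193 to 258 and 315 to 345 CPM.

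The change in fragments relative to RNA, which is the change in translational efficiency, passed for none of the 56 members. The interaction of library type and treatment, tested in 1 edgeR fit over all 12 libraries, called 0.0180% of 5552 genes higher and none lower. At an unadjusted p under 0.05, 8 members were higher, RPS0A, RPS2, RPS18A, RPS21B, RPS22B, RPS26A, RPS27B and RPS31, and 0 were lower, against 5.01% and 2.90% of all genes. DESeq2 called 0, but it gave no adjusted p to RPS22B, RPS18A, RPS21B, RPS10A and RPS6A, so these could not be called there. The highest were RPS22B with a log2 change of 0.79 (adjusted p = 0.422), RPS18A with 0.42 (adjusted p = 0.414) and RPS21B with 0.41 (adjusted p = 0.459). Among the lowest were RPS10A with -0.23 (adjusted p = 0.694) and RPS6A with -0.19 (adjusted p = 0.829). The members' median of 0.05 became -0.04 without untreated replicate 1 of both kinds, where 2 members were higher and 2 lower at an unadjusted p under 0.05, against 4.33% and 2.89% of all genes.

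In untreated cells the log2 ratio of fragments to RNA was below 0 for 44 of 56 members, against 2823 of 5409 genes. A ratio below 0 means fewer fragments for the RNA than the average gene. By the edgeR quasi-likelihood test, 24 of 56 had fewer fragments relative to RNA and 6 had more, against 29.6% and 28.1% of 5409 genes. The median log2 ratio was -0.23, against -0.04 for all genes, and that of the large subunit genes was -0.44, with 50 of 81 lower. The size depended on the library, since the members' median ratio between fragment and RNA libraries of the same number was -0.51, -0.04 and -0.15 for untreated replicates 1 to 3 and -0.09, -0.07 and -0.07 for pre-treated ones. The labels do not say that libraries of 1 number come from the same culture, so these ratios describe pairs of libraries. Without untreated replicate 1, 17 members were lower and 5 higher, against 26.2% and 24.6% of all genes in that fit, so the lower calls were then nearer the background share. Upper-quartile scaling gave 31 lower and 2 higher, against 33.7% and 23.8% of all genes, with a median over all genes of -0.12.

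RPS31 had the lowest ratio of all members. On the log2 scale, relative to the median gene, it was -2.10, -1.53 and -1.78 for the untreated and -1.59, -1.39 and -1.43 for the pre-treated library pairs, and the tested difference in untreated cells was -1.83 ± 0.12 (SE, edgeR adjusted p = 4.65e-17). The next lowest were RPS22B, at -1.82, -1.09 and -0.82, and RPS12, a head protein, at -1.55, -1.01 and -1.13 in untreated library pairs. Both passed the test, at -1.38 and -1.25. All of these ratios were negative in every pair.

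RPS28B, whose protein in yeast takes part in the decay of its own messenger RNA, had the highest ratio, at 0.80, 1.21 and 1.67 in untreated library pairs (tested difference 1.26 ± 0.27, edgeR adjusted p = 0.00342). This held for the B copy only, since with both copies summed the RPS28 difference was -0.11 (edgeR adjusted p = 0.479). RPS30A, at 0.34, 0.55 and 0.36, was also among the highest. It lost its call without untreated replicate 2 (adjusted p = 0.105).

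**Figure D4:**
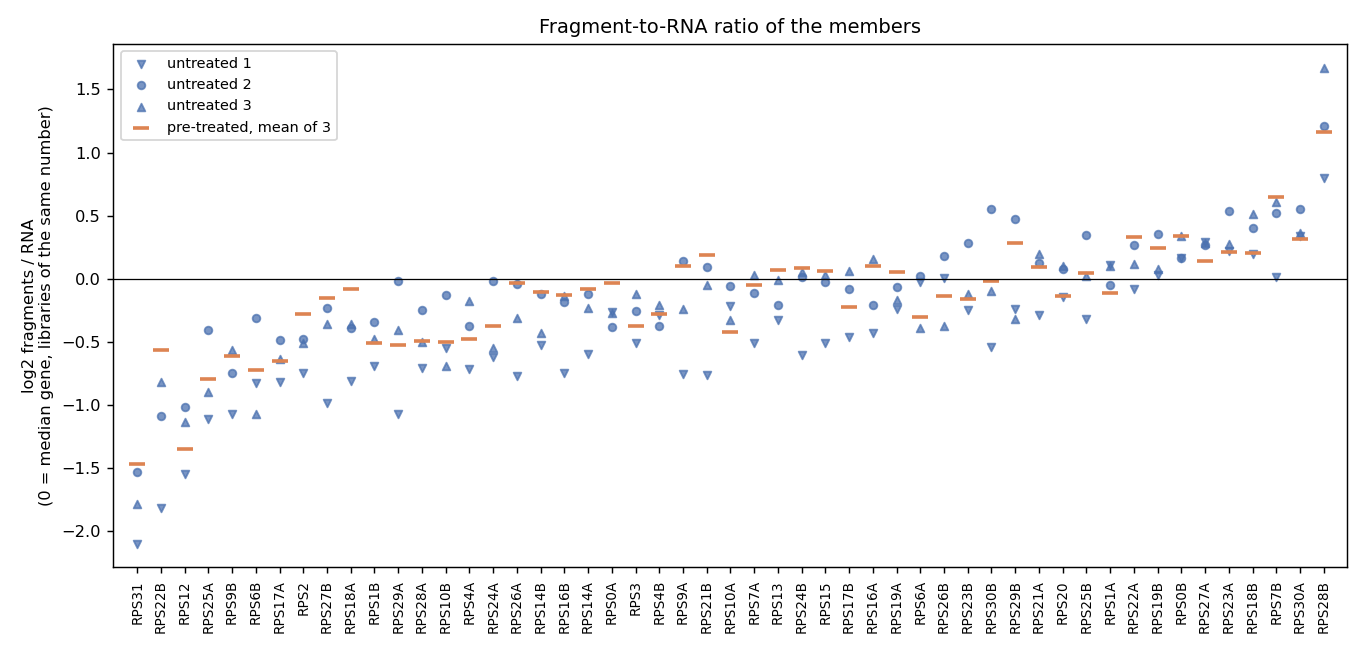
Log2 ratio of fragments to RNA (y axis, 0 is the median gene) for the members (x axis, in order of the untreated mean), with 1 point for each untreated pair of same-numbered libraries and a bar for the mean of the 3 pre-treated ones. RPS31 is at the left end, between -2.10 and -1.53 in untreated library pairs, and RPS28B is at the right end, between 0.80 and 1.67.

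The share of the A copy in the counts of its pair needs no scaling between libraries. The untreated and pre-treated groups did not overlap for 7 of 24 pairs in RNA and for 4 of 24 in fragments. Among the 33 large subunit pairs the groups did not overlap in 51.5% in RNA and 30.3% in fragments, so the small subunit's counts were no higher than that background. With 3 libraries a group an exact permutation test cannot go below 0.10, so the shares are given with no test, and the reads they rest on are those that match 1 copy only.

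The A copy of RPS14 had a higher share after pre-treatment in both kinds of library. Its share of RNA was 75.6%, 75.3% and 73.3% in untreated and 82.2%, 80.7% and 81.3% in pre-treated libraries. Its share of fragments was 74.7%, 75.3% and 76.0% in untreated and 81.0%, 83.5% and 80.5% in pre-treated libraries. The difference of 6.67 percentage points in RNA and 6.35 in fragments stands beside the lower RPS14B RNA given above.

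RPS18, a head protein at a bridge between the subunits, differed in opposite directions. Its A copy had 62.6%, 59.6% and 58.3% of untreated and 56.0%, 55.1% and 53.5% of pre-treated RNA, but 45.4%, 46.0% and 43.4% of untreated and 48.7%, 48.8% and 52.0% of pre-treated fragments. The groups overlapped in neither kind of library, and the difference between the kinds was not tested on the shares.

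In RNA alone the groups also did not overlap for RPS6, whose A share went from 45.3% ± 1.21 to 47.8% ± 1.40 (SD, n = 3). The same held for RPS19, from 47.3% ± 1.02 to 43.1% ± 1.68, and RPS9, from 7.93% ± 0.724 to 6.30% ± 0.522. In fragments alone it held for RPS1, from 59.5% ± 1.03 to 56.0% ± 0.958. Between RNA and fragments of untreated cells the A share did not overlap for 18 of 24 pairs, 9 in each direction, against 63.6% of large subunit pairs. RPS28 was among them, with its A copy at 86.5% ± 1.92 of RNA and 66.0% ± 6.14 of fragments.

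**Figure D5:**
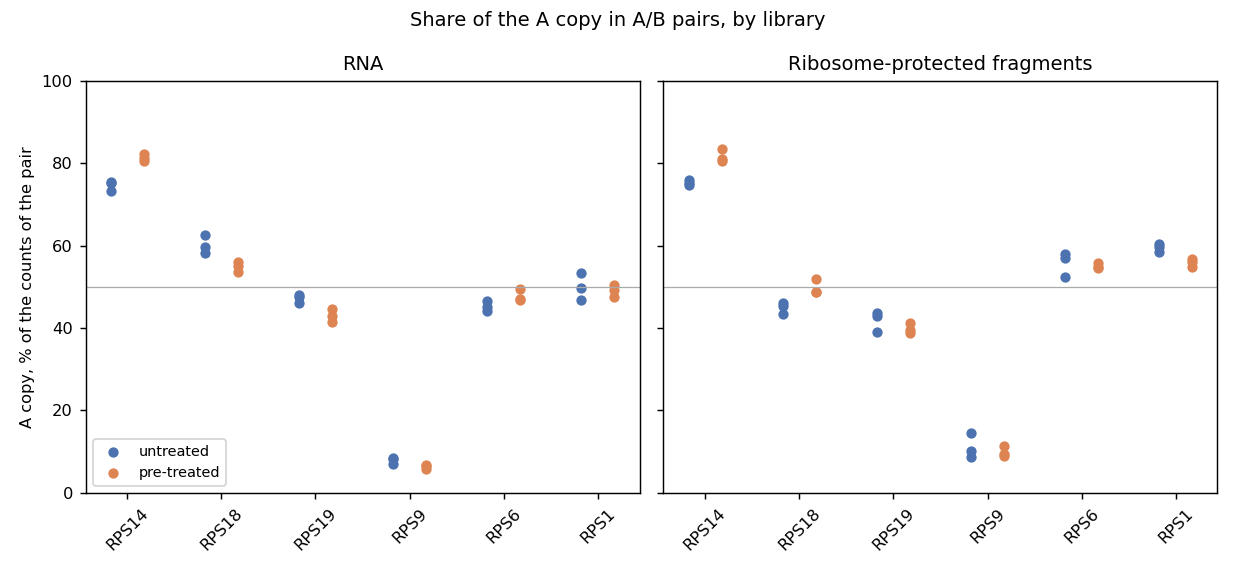
Share of the A copy (percent of the pair's counts) in each library, for pairs whose groups do not overlap between untreated and pre-treated cells. The RPS14 share is higher after pre-treatment in RNA and in fragments, and the RPS18 share is lower in RNA and higher in fragments.

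Across the 24 pairs the correlation between the log2 changes of the A and the B copy was 0.055 in RNA and 0.48 in fragments. Across the 56 members the correlation between the RNA change and the fragment change was 0.39, and across 5070 genes it was 0.70. These describe genes of the same libraries, and untreated fragment replicate 1 enters all fragment changes.

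The other genes that make, bind or modify the small subunit were read against the shares of all genes given above, 7.17% higher and 6.06% lower in RNA and 8.53% higher and 4.85% lower in fragments. At an unadjusted p under 0.05 the shares of all genes in RNA were 13.8% higher and 12.5% lower. DESeq2 called 3.73% of all genes higher and 3.14% lower in RNA, as shares of all 7130 gene identifiers with no filter. Of 32 factors of its assembly and export, none passed in RNA (0 higher and 4 lower at an unadjusted p under 0.05, and 0 by DESeq2) and 2 were lower in fragments, SLX9 (log2 change -0.85, edgeR adjusted p = 0.00399) and ENP1 (-0.60, adjusted p = 0.0204). Slx9 and Enp1 act in the maturation and export of the pre-ribosomal subunit. Of 7 dedicated chaperones and importers, 0 passed in RNA (1 at an unadjusted p under 0.05, and 0 by DESeq2) and 1 in fragments, KAP123, the main importer of ribosomal proteins, at 0.37 (adjusted p = 0.00819). ASC1, the other protein of the small subunit and the sole gene that passed among 6 associated ones, was higher in RNA (0.34 ± 0.09, adjusted p = 0.0141) and in fragments (0.31, adjusted p = 0.0228). KAP123 lost its call without untreated replicate 2 (adjusted p = 0.0532). ENP1 lost it with DESeq2 and without untreated replicate 2 or 3 or pre-treated replicate 2 or 3, with an adjusted p between 0.0703 and 0.151. ASC1 lost its RNA call without pre-treated replicate 1 (0.0736) or 2 (0.09), and its fragment call with upper-quartile scaling, DESeq2 and without untreated replicate 1 or 3 or pre-treated replicate 1 (0.059 to 0.148).

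Of 19 transcription factors and kinases that act on ribosomal protein genes, 1 RNA was higher and 2 were lower. RAP1, the general activator, had a log2 change of 0.53 in RNA (edgeR adjusted p = 0.0128) and 0.41 in fragments (adjusted p = 0.0498). IFH1, the coactivator, had -0.53 in RNA (adjusted p = 0.0277), and DOT6, a repressor of ribosome biogenesis genes, had -0.46 (adjusted p = 0.00169). Of 12 genes of degradation and modification, a list that also holds the member RPS31, SFM1, which methylates Rps3, was higher in RNA at 0.41 (adjusted p = 0.0428). BRE5, a cofactor of the deubiquitinase Ubp3, was lower in RNA at -0.67 (adjusted p = 0.000562), and MAG2 was lower in fragments at -0.47 (adjusted p = 0.0358). The calls of SLX9, DOT6 and BRE5 held in each alternative. IFH1 lost its call without any 1 library other than pre-treated replicate 1 (adjusted p 0.0634 to 0.113), and SFM1 without any 1 library other than untreated replicate 2 (0.0539 to 0.218). SFM1 also lost it with upper-quartile scaling (0.0642), with DESeq2 (0.159) and with the replicate number as a block (0.058). RAP1 lost its RNA call with DESeq2 (0.0839) and without pre-treated replicate 2 (0.06) or 3 (0.0682). It lost its fragment call without any 1 library other than untreated replicate 1 or pre-treated replicate 2 (0.133 to 0.21). That call was also lost with upper-quartile scaling (0.0866), with DESeq2 (0.186), in the whole-series table (0.0551) and with the replicate number as a block (0.0516). MAG2 lost its call without any 1 library other than untreated replicate 2 or pre-treated replicate 3 (0.0687 to 0.139), and with DESeq2 (0.171). For the fragment-to-RNA change 0 genes of these lists passed and DESeq2 called 0, though it left some genes without an adjusted p. At an unadjusted p under 0.05 the assembly list had 1 higher and the degradation list had 1 higher and 1 lower. The 1 higher in the degradation list was the member RPS31, and the other 3 lists had 0.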

How the data were processed

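RNA and ribosome-protected fragments were sequenced in 12 libraries, 3 in each of 4 groups. The deposited counts, per the file headers, are reads counted by the authors with featureCounts 1.6.2 per exon feature on the sense strand against R64-1-1, without reads that match several places or features. Cutadapt 1.18, STAR 2.7.1a and SAMtools 1.9 are named in the submitters' processing notes. Exons were summed per gene. The authors' whole-series table of counts per gene, whose making is not stated, was used as an alternative, and its totals were 98.34% to 99.08% of the summed ones.

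Tests used edgeR 4.0.16 in R 4.3.3 with filterByExpr (minimum count 10, minimum total 15), TMM scaling and robust quasi-likelihood fits, with Benjamini-Hochberg adjustment over all genes tested and a threshold of 0.05. Standard errors are the log2 change divided by the square root of F. CPM values use the TMM library sizes, and ratios of fragments to RNA have a pseudocount of 0.5 counts. The procedure was tested on simulated data. Alternatives were upper-quartile and RLE scaling, DESeq2 1.42.0, no filter, the whole-series table, summed A and B copies, the replicate number as a block, and leaving out each library. In fits over both kinds of library, the RNA and fragment libraries of 1 condition and number were left out together.

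The members and gene lists were chosen with earlier results of these data known. Members called, the 3 largest changes in a direction with fewer than 5 calls, single-copy genes, pairs whose A shares did not overlap and the 3 highest and 3 lowest ratios are named, as are called genes of the other lists. Symbols come from RefSeq locus tags, and 6048 identifiers matched. Results for some members are not reported here, in text or figures, but they are in all counts and medians.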

Additional observations from a re-analysis of the deposited data

How the results depend on the processing

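Changes of some named members, such as those of RPS12 and RPS20 in fragments, were not followed through the alternatives. None of the named changes that were followed reversed its direction, but the balance of the fragment calls did. Without untreated replicate 1 it went from 4 members higher and 0 lower to 2 higher and 3 lower. The members' medians, all near 0, changed sign in some fits. In fragments the median went from 0.03 to -0.06 without untreated replicate 1 and to -0.01 with upper-quartile scaling. It went from 0.05 to -0.04 for the fragment-to-RNA change without untreated replicate 1, and from -0.04 to 0.003 in RNA without untreated replicate 3. In RNA the members called higher went from 1 to 0 with upper-quartile scaling, DESeq2, summed paralogs or the replicate block, and ran from 0 to 2 when single libraries were left out. Those called lower went from 4 to 2 with summed paralogs and ran from 1 to 5 without single libraries. In fragments those called higher ran from 2 to 4 without single libraries, and those called lower went from 0 to 1 with upper-quartile scaling or no filter and from 0 to 3 without single libraries. In untreated fragments against RNA those higher went from 6 to 2 with upper-quartile scaling and to 0 with summed paralogs. With the RNA and fragment libraries of 1 number left out together, those higher ran from 2 to 5. Those lower then ran from 17 to 23, against 24. The cause was not tested, except that summing paralogs leaves fewer genes to call.

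Library numbers were not taken as pairs. Across all genes the correlation of deviations between same-numbered untreated and pre-treated libraries was 0.008, 0.073 and 0.052 in RNA and -0.143, -0.012 and -0.065 in fragments. In RNA 6 of 6 libraries correlated best with their own number and in fragments 0 of 6, which is a hint from the data and not from the design. The replicate block left 0 members higher in RNA, where the adjusted p of RPS22A was 0.0515, and, in untreated fragments against RNA, 6 higher and 25 lower. It also ended the calls of SFM1 in RNA (0.058) and RAP1 in fragments (0.0516).

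The number of libraries, 3 a group, and the depth, down to 737922 reads, limit the precision of all values, which cover counted reads that match 1 place only.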

Other observations

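The introns of the family sit near the start of the coding sequence, and the counts per exon show how reads divided between the first exon and the rest. In 23 of the 36 genes with an intron the first exon has fewer than 27 bases, less than the shortest fragment kept. The genes below were picked after their values were seen, and none of the shares was tested. Lack of overlap in the fragment shares was not particular to them. It was also seen in other genes with an intron, among them RPS0B, which was higher after pre-treatment, and RPS4B and RPS18A, which were lower. For RPS4B it rested on very few fragments, with 4, 6 and 4 in the first exon in untreated and 0, 4 and 3 in pre-treated libraries. In RPS7B, a protein of the body, the first exon of 144 bases makes up 25.1% of the coding sequence. It held 24.1%, 23.3% and 21.7% of the gene's fragments in untreated and 30.0%, 27.8% and 29.3% in pre-treated libraries, without overlap. In its copy RPS7A the shares were 26.2%, 30.0% and 32.8% in untreated and 27.6%, 24.1% and 25.9% in pre-treated libraries, and the groups overlapped.

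In RPS10A, a head protein beside the entry of the messenger RNA, the first exon of 52 bases makes up 16.4% of the coding sequence. It held 23.1%, 26.9% and 20.9% of untreated and 19.2%, 17.1% and 18.6% of pre-treated fragments, without overlap. In RPS10B, with a first exon of the same length, the fragment shares were 13.3% ± 3.11 (SD, n = 3) in untreated cells and overlapped with those of pre-treated cells. The first exon of RPS10A thus held more of its gene's untreated fragments than that of RPS10B in each library. The same held in untreated RNA, at 11.8% to 15.7% in RPS10A and 9.06% to 9.77% in RPS10B. How far reads lost at splice junctions or shared between copies set these shares was not tested.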
